A study of Mus musculus with 6 samples.

Results

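The insulin-like growth factor (IGF) genes examined here are both ligands (Igf1 and Igf2), both receptors (Igf1r and Igf2r) and the binding proteins Igfbp2 to Igfbp7. They were found by gene symbol in the expression table, where 10 of 54532 rows carried these symbols. The table describes hearts of 12-week-old mice on a C57B/6/N background, 3 WT and 3 homozygous Mc4r KO, with 1 polyA RNA-seq library per mouse. Mc4r encodes the melanocortin-4 receptor, a receptor of the hypothalamus that restrains feeding, and the comparison asks what its loss does to the heart before cardiac function is impaired. The WT mice were littermates from crosses of heterozygous parents, all mice ate standard chow, and the deletion is present in the whole animal. The paper reported a significantly greater body weight in Mc4r KO than in WT mice at this age. The deletion and body weight therefore cannot be told apart here. The labels name the tissue as heart in one field and as muscle in another, and the paper speaks of left ventricle in its discussion. The sex of the sequenced mice is not given in the labels, and the paper's discussion speaks of male mice for its measurements of cardiac function. The methods describe 3 animals per group.

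IGF1 is made mainly by the liver under growth hormone, and is also made locally in many tissues, the heart included. It acts through IGF1R, a receptor tyrosine kinase that recruits IRS adaptors and the PI3K and AKT kinases and favours growth and survival of cardiomyocytes. IGF2R binds IGF2, takes it up and delivers it to lysosomes without a kinase of its own. The binding proteins hold the ligands in blood and in the matrix, prolong their life and release them when proteases cut the carrier.

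Values are FPKM, in which the fragments of a gene are divided by its length and by a factor of the library, so that levels may be compared between genes. This factor did not follow the number of reads alone. In FPKM times length, a read stood for 70.9 in WT replicate 1 and for 64.4 in Mc4r KO replicate 1, which had fewer reads on genes. The reads on genes were between 14691076 and 16047003 per library. For Mc4r itself 2 reads were counted in WT replicate 3, with 0 in each of the other libraries, which is under the floor of 3 reads used throughout, so it does not check the labels of these hearts. The cardiomyocyte markers were high in every library, with a summed level of 10118 to 14184 FPKM over 6 genes. Of 5 skeletal muscle markers, only Myh4, a myosin of fast skeletal muscle, was at 0 in all 6 libraries. Acta1 was at 49.7 to 238 FPKM in WT and 233 to 555 FPKM in Mc4r KO. Ckm was at 306 to 404 FPKM over the 6 libraries, Tnnt3 was at 0.16 to 0.48 FPKM, and Myh1 had 1 read in Mc4r KO replicate 2 only. Of 4 adipocyte markers, only Lep was at 0 in all 6 libraries. Cfd was at 0.385 to 0.831 FPKM in WT and 0 to 0.210 FPKM in Mc4r KO, and Adipoq and Plin1 had 0 to 3 reads per library. Mitochondrially encoded genes took 59.3%, 57.4% and 47.1% of the summed FPKM in WT replicates 1, 2 and 3 and 43.0% to 46.6% in Mc4r KO. In this measure WT replicates 1 and 2 stood apart and WT replicate 3 lay next to the Mc4r KO libraries.

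WT replicate 3 stood apart from the other libraries. The summed level of 4 atrial markers was 747 FPKM in WT replicate 3 and 6.29 to 136 FPKM in the other 5 libraries. Among them Myl7, the atrial myosin light chain, reached 307 FPKM there and was 0.240 to 38.8 FPKM elsewhere. The summed level of 6 epicardial and mesothelial markers was 28.0 FPKM in WT replicate 3 and 4.94 to 8.11 FPKM elsewhere, and 6 of the 6 genes were highest in it. Several IGF genes were also highest in this library, and their values are therefore given with and without it. In whole tissue, fewer cells of a type and less RNA per cell cannot be told apart.

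The members spanned a wide range of levels. Igfbp7 was the most abundant, with a mean of 133 FPKM over the 6 libraries. Igfbp5, Igfbp4, Igf2r, Igfbp6 and Igfbp3 followed with means of 26.6, 24.8, 19.7, 19.1 and 11.4 FPKM. Igf1r and Igf1 were lower, at 1.90 and 1.46 FPKM, then came Igf2 with 0.271 FPKM and Igfbp2 with 0.0409 FPKM. The ranges over the 6 libraries were separate between Igfbp7 and Igfbp5, between Igfbp3 and Igf1r and between Igf1 and Igf2, and the other neighbours in this order had overlapping ranges.

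**Figure D1:**
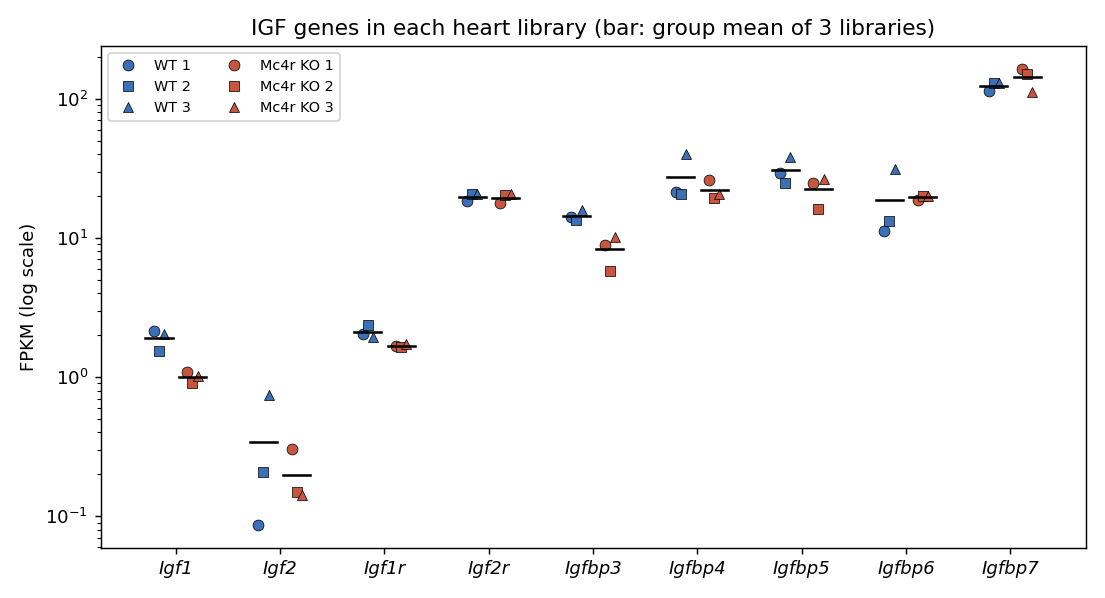
FPKM on a log axis of 9 IGF genes in each library, with WT in blue, Mc4r KO in red, the replicate number by symbol and the group mean of 3 libraries as a bar. Igf1 was 1.55 to 2.16 FPKM in WT and 0.904 to 1.09 FPKM in Mc4r KO, and Igfbp3, like Igf1r, also showed no overlap between the groups. Igfbp2, with 0 reads in 4 of 6 libraries, is not drawn.

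The main test was limma on log2(FPKM + 0.1) with Benjamini-Hochberg adjustment over the 18035 genes whose mean FPKM reached 0.1. Calls required that the adjusted p be under 0.05 and that the log2 fold change exceed 0.75 in either direction. By this rule 83 genes of the whole table were called, 0.46% of those tested. Of the 10 members, 9 were tested and 0 were called. At an unadjusted p under 0.05, which 20.9% of all genes tested reached, 3 of the 9 members passed and all 3 were lower in Mc4r KO (8.83% of all genes in that direction). The groups did not overlap for Igf1, Igf1r and Igfbp3, each lower in Mc4r KO, which was true of 12.4% of all genes. Of the 9 members, 7 had a negative log2 fold change and 2 a positive one, with a median of -0.31, beside a median of -0.01 over all genes tested. Without WT replicate 3 the median of the members was 0.003.

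Limma voom on the reads recovered from the FPKM steps called Igf1 and Igfbp3, both lower (0.638% of all genes tested were called lower by voom). With array weights, which let a deviating library count less, the same rule called Igf1 alone, as did the fit on protein-coding genes only (0.732% and 0.517% of genes called lower). Without WT replicate 3, 0 members were called by limma, and 4.04% of all genes were.

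Igf1 lies at chr10:87858265-87937042 (GRCm38, plus strand). Its level was 2.16, 1.55 and 2.05 FPKM in WT replicates 1, 2 and 3 and 1.09, 0.904 and 1.01 FPKM in Mc4r KO replicates 1, 2 and 3. All 3 Mc4r KO libraries were below all 3 WT libraries, and the reads behind these values were 220 to 345 in WT and 136 to 168 in Mc4r KO. The means were 1.92 ± 0.324 and 1.003 ± 0.0949 FPKM (SD, n = 3 each), which is -0.86 as a log2 fold change, with an SE of 0.17 and a 95% interval of -1.27 to -0.45. The adjusted p was 0.0744 by limma, so Igf1 missed the call, and the exact permutation test gave p = 0.1 (two-sided), the smallest that 3 against 3 allows. The paper, which used DESeq2 on counts, reported Igf1 as significantly lower in Mc4r KO. Over the 21 alternative fits its log2 fold change ran from -1.04 to -0.54 with adjusted p from 0.0171 to 0.290. Without WT replicate 3 it was -0.81 (adjusted p = 0.0538). The summed level of 8 fibroblast markers was also lower in Mc4r KO, at 254 to 291 FPKM in WT and 198 to 232 FPKM in Mc4r KO. Within WT this sum was lowest in WT replicate 1, at 254 FPKM, and Igf1 was highest there. The markers differed in this order. Within WT, Dcn and Lum were highest in WT replicate 1, and Dpt and Col3a1 in WT replicate 3. The part of this sum in the Igf1 difference was not tested. Dcn made up much of this sum, with means of 119 and 82.4 FPKM, and 6 of the 8 markers were lower in Mc4r KO, while Col1a1 and Col1a2 had log2 fold changes of 0.44 and 0.03. Of 6 macrophage markers, Csf1r, Cd68 and Mrc1 were lower in Mc4r KO without overlap (log2 fold changes of -0.37, -0.42 and -0.40) and C1qa and C1qb had 0.63 and 0.31. Their sum was 77.4 to 137 FPKM in WT and 102 to 129 FPKM in Mc4r KO, and the lowest limma adjusted p among the fibroblast and macrophage markers was 0.0579, for Dcn.

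Igf2 lies at chr7:142650766-142666816 (minus strand) and is an imprinted fetal growth factor that is low in most tissues of the adult mouse. It had 7, 17 and 72 reads in WT replicates 1, 2 and 3 and 27, 13 and 13 reads in Mc4r KO replicates 1, 2 and 3. Its level was 0.0867, 0.207 and 0.739 FPKM in WT and 0.304, 0.150 and 0.142 FPKM in Mc4r KO. WT contained both the lowest and the highest library. The log2 fold change was -0.33 with an SE of 0.58 and an interval of -1.70 to 1.05 (limma adjusted p = 0.792), and it was 0.28 without WT replicate 3 and -1.80 with the GC percentage of the reads as a covariate (adjusted p = 0.332). That percentage was higher in each Mc4r KO library than in each WT library, and WT replicate 3 lay close to Mc4r KO. The covariate and the genotype are therefore hard to separate, here and for the other genes. Exons of Gm49394 on the same strand cover 62.83% of the exonic bases of Igf2, and Gm49394 was at 0 reads in all 6 libraries. Reads from shared bases can be lost in counting, so the level of Igf2 is uncertain.

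The stretch of the B domain with its pair of cysteines is shown for both ligands so that the ligands can be compared base by base. It is coding sequence from the GENCODE M21 transcripts, with the cysteine codons in capitals. In Igf1 it occupies chr10:87864821-87864886 in exon 3 of 5, and in Igf2 chr7:142655655-142655720 in exon 2 of 4, with 45 of 66 bases identical.
Igf1: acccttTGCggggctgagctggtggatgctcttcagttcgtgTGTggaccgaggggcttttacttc
Igf2: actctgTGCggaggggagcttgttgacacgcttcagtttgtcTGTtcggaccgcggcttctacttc

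Igf1r, the signalling receptor, lies at chr7:67952827-68233668 (plus strand). It was at 2.03, 2.38 and 1.94 FPKM in WT and at 1.67, 1.65 and 1.72 FPKM in Mc4r KO. Each Mc4r KO library was below each WT library, and the Mc4r KO libraries lay closer together. The means were 2.12 ± 0.233 and 1.68 ± 0.0328 FPKM (SD, n = 3 each), or -0.31 as a log2 fold change, with an SE of 0.13 and an interval of -0.62 to -0.01. The limma adjusted p was 0.232, and it ran from 0.114 to 0.736 over the alternatives, with a log2 fold change from -0.50 to -0.21.

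Igf2r, the clearance receptor at chr17:12682406-12769664 (minus strand), was at 18.3, 20.6 and 20.5 FPKM in WT and at 17.8, 20.2 and 20.5 FPKM in Mc4r KO. The groups overlapped almost wholly, with 2399 to 3256 reads per library. Its log2 fold change was -0.02 with an interval of -0.25 to 0.20 (limma adjusted p = 0.916). Its sign changed when single libraries were left out.

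The binding proteins share a cysteine-rich first domain. A stretch of 24 bases of exon 1 is shown for each of them, since it separates the members that keep all cysteine codons from Igfbp6. It comes from the same GENCODE M21 transcripts and has the cysteine codons in capitals.
Igfbp2: ggcTGCggcTGCTGCtccgtgTGC
Igfbp3: ggcTGCggcTGCTGCctgactTGC
Igfbp4: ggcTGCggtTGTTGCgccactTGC
Igfbp5: ggcTGTggcTGCTGCatgactTGC
Igfbp6: ggcTGTacagaagccggaggcTGT
Igfbp7: gcgTGCgggTGCTGCccggtgTGT

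The stretches lie at chr1:72824778-72824801 in Igfbp2, chr11:7213566-7213589 in Igfbp3, chr11:99041650-99041673 in Igfbp4, chr1:72873966-72873989 in Igfbp5, chr15:102144716-102144739 in Igfbp6 and chr5:77407826-77407849 in Igfbp7. Compared with Igfbp3, 22 of 24 bases were identical in Igfbp5, 19 in Igfbp4, 18 in Igfbp2, 16 in Igfbp7 and 8 in Igfbp6. Igfbp6 had 2 cysteine codons in this stretch and each of the others had 4. IGFBP6 is known for its preference for IGF2 over IGF1.

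Igfbp3, the main IGF carrier of the blood, lies at chr11:7206086-7213923 (minus strand). Its level was 14.3, 13.3 and 15.8 FPKM in WT and 8.89, 5.80 and 10.1 FPKM in Mc4r KO. All 3 Mc4r KO libraries were below all 3 WT libraries, with 600 to 841 reads against 276 to 509. The means were 14.5 ± 1.23 and 8.28 ± 2.23 FPKM (SD, n = 3 each), or -0.83 as a log2 fold change, with an SE of 0.20 and an interval of -1.30 to -0.36. The limma adjusted p was 0.0995, so Igfbp3 was not called, and the exact permutation p was 0.1. In the paper's RT-qPCR the mean level of Igfbp3 was also lower in Mc4r KO. Its log2 fold change ran from -1.07 to -0.60 over the 21 alternatives (adjusted p from 0.0272 to 0.288), and it was -0.77 without WT replicate 3 (adjusted p = 0.0919).

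The 250 bases before the RefSeq start of Igfbp3, at chr11:7213924-7214173 of GRCm38.p6 on the minus strand, are printed because Igfbp3 had the largest difference among members whose window holds no exon of the same gene.
Igfbp3: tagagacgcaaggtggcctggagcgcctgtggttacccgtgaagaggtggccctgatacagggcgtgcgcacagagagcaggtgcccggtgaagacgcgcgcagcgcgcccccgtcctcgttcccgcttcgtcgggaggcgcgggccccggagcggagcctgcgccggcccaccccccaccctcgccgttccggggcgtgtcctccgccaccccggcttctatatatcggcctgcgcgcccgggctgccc

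Of these bases 73.2% were G or C, beside a median of 52.4% over 32851 promoters. Both strands were searched for the exact letters of 3 motifs, and none of these spellings was in this window. The run tatatat near the end of the window resembles a TATA box but was not among the letters searched. The search therefore does not show that a TATA box is missing. The TATA box, spelled TATAAA, was in the windows of 12.37% of all promoters. A GC box, spelled GGGCGG, was in 32.74%. A form bound by STAT factors, spelled TTCNNNGAA, was in 7.02%.

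Igfbp5, which binds matrix and bone mineral as well as IGFs, was at 29.2, 24.9 and 37.9 FPKM in WT and at 24.9, 16.1 and 26.4 FPKM in Mc4r KO. The groups overlapped. This gave a log2 fold change of -0.46 with an SE of 0.22 and an interval of -0.98 to 0.07 (limma adjusted p = 0.296), and it was -0.29 without WT replicate 3 and -0.90 with the GC covariate (adjusted p = 0.326).

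Igfbp4, which inhibits IGF action until it is cut by the protease PAPP-A, was at 21.5, 20.7 and 40.3 FPKM in WT and at 26.1, 19.5 and 20.7 FPKM in Mc4r KO. WT replicate 3 was far above every other library, and the remaining 5 libraries lay between 19.5 and 26.1 FPKM. With all libraries the log2 fold change was -0.26 with an interval of -0.87 to 0.35 (limma adjusted p = 0.605). It was 0.05 without WT replicate 3 and -0.98 with the GC covariate (adjusted p = 0.195).

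Igfbp6 was at 11.2, 13.3 and 31.5 FPKM in WT and at 18.8, 20.1 and 20.1 FPKM in Mc4r KO. WT replicates 1 and 2 were below all Mc4r KO libraries and WT replicate 3 was above them. The 3 Mc4r KO libraries agreed within a coefficient of variation of 3.81%, and the WT libraries had one of 59.9%. The log2 fold change was 0.23 with an interval of -0.59 to 1.06 (limma adjusted p = 0.748). Without WT replicate 3 it was 0.68 with an adjusted p of 0.0163, still short of the fold change that a call needs. With the log2 level of Myl7 as a covariate, chosen after seeing the data, it was 0.45 (adjusted p = 0.421). The direction turned with the GC percentage of the reads as a covariate, to -0.83 (adjusted p = 0.195), and without WT replicate 1, to -0.06. As said for Igf2, the GC percentage nearly follows the genotype, so the value with it is loosely determined. The adjusted p over all alternatives ran from 0.0163 to 0.956.

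Igfbp7, a low-affinity IGF binder of the vessel wall, was at 113, 129 and 129 FPKM in WT and at 164, 151 and 112 FPKM in Mc4r KO. Mc4r KO replicates 1 and 2 were above all WT libraries and Mc4r KO replicate 3 was below them. For the whole groups the log2 fold change was 0.19 with an interval of -0.17 to 0.54 (limma adjusted p = 0.530). When libraries were scaled to the sum outside the mitochondrial chromosome, the median of all genes was -0.19 and Igfbp7 was at -0.01. Exons of Polr2b on the opposite strand overlap 7.03% of its exonic bases, and the use of strand in counting is not stated.

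Igfbp2, a carrier made largely by the liver, was not detected in WT, with 0 reads per library, and 5, 2 and 0 reads were counted in Mc4r KO replicates 1, 2 and 3. The floor of 3 reads equals 0.0954 to 0.115 FPKM for this gene, and only Mc4r KO replicate 1, at 0.174 FPKM, was above it. Its mean of 0.0409 FPKM was below the filter, so it was not tested, and no difference was detectable at this depth.

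**Figure D2:**
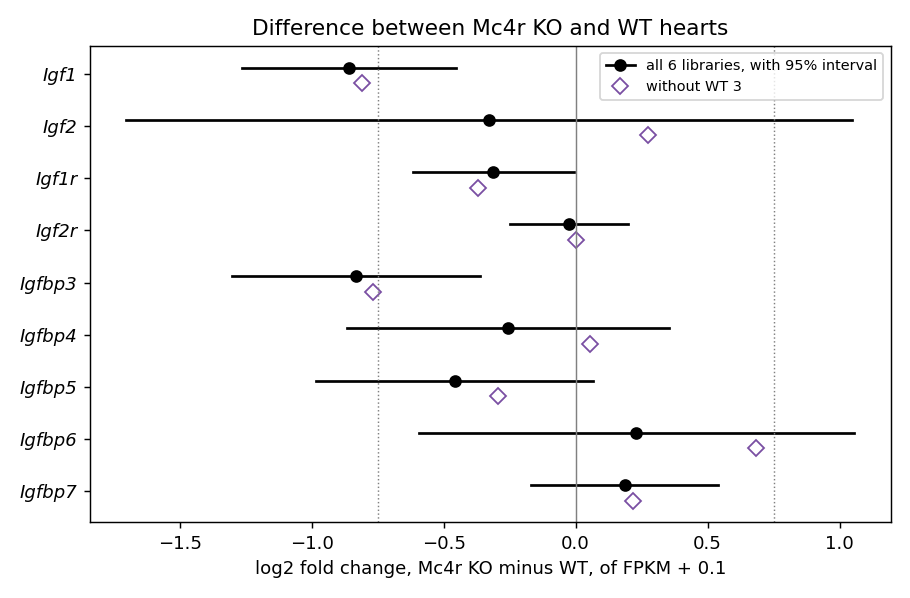
Log2 fold change of FPKM + 0.1, Mc4r KO minus WT, of the 9 members tested (filled circles, with 95% intervals) and the same value without WT replicate 3 (open diamonds). Dotted lines mark the fold change of 0.75 in either direction that a call needs. The values of Igf1 and Igfbp3 were -0.86 and -0.83 and stayed below -0.75 without WT replicate 3. Those of Igf2, Igf2r and Igfbp4 changed sign, with Igf2r near no difference in both fits.

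The atrial and epicardial markers had their highest sums in WT replicate 3, as described above. Igf2, Igfbp3, Igfbp4, Igfbp5 and Igfbp6 were each highest in that library. Igf1 and Igf1r were not, with their highest levels in WT replicates 1 and 2. With the Myl7 covariate the log2 fold changes of Igf1 and Igfbp3 were -0.86 and -0.79 (limma adjusted p = 0.0962 and 0.119), and that of Igf2 was 0.12.

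**Figure D3:**
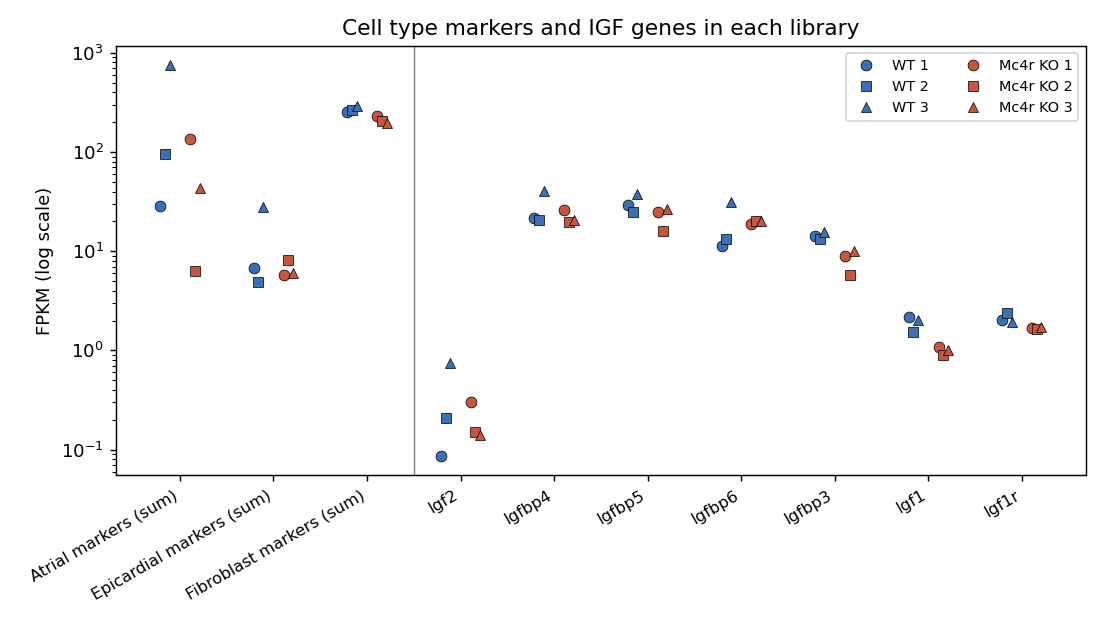
Summed FPKM of the atrial, epicardial and fibroblast markers (left of the line) and FPKM of 7 members (right of it) in each library, on a log axis. WT replicate 3 (blue triangle) was the highest library for all 3 marker sums and for Igf2, Igfbp4, Igfbp5, Igfbp6 and Igfbp3. The fibroblast sum was 254 to 291 FPKM in WT and 198 to 232 FPKM in Mc4r KO.

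The summed level of Igfbp2 to Igfbp7 was 215 ± 34.7 FPKM in WT and 215 ± 26.9 FPKM in Mc4r KO (SD, n = 3 each). Within this sum the share of Igfbp3 was 7.52%, 6.64% and 6.20% in WT and 3.66%, 2.73% and 5.35% in Mc4r KO, with no overlap between the groups. The means were 6.78% ± 0.674 and 3.91% ± 1.33 (SD, n = 3 each, exact permutation p = 0.1, adjusted p = 0.45 over 6 shares). Igfbp7 made up 58.2% ± 6.83 of the sum in WT and 65.9% ± 6.07 in Mc4r KO, and its groups overlapped. The mean shares of Igfbp5, Igfbp4 and Igfbp6 were 14.2%, 12.5% and 8.28% in WT and 10.6%, 10.3% and 9.25% in Mc4r KO, again with overlap. With Igfbp7 left out of the sum, the difference in the share of Igfbp4 turned from -2.23 to 0.81 percentage points, and without WT replicate 1 that of Igfbp6 turned from 0.969 to -0.228. A share within a library does not depend on the scaling between libraries.

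The balance of members was followed with 7 sums and ratios, chosen after their values were seen. The summed binding protein level over that of Igf1 was 87.9, 130 and 124 in WT and 222, 235 and 187 in Mc4r KO. It was higher in each Mc4r KO library than in each WT library, with means of 114 ± 22.9 and 215 ± 24.8 (SD, n = 3 each, exact permutation p = 0.1, adjusted p = 0.233 over the 7 quantities). Since the mean summed binding protein level was 215 FPKM in both groups, this ratio mainly restates the difference in Igf1. The level of Igf2r over that of Igf1r was 9.02, 8.67 and 10.6 in WT and 10.6, 12.2 and 12.0 in Mc4r KO, also without overlap, with 10.58 in WT replicate 3 beside 10.63 in Mc4r KO replicate 1. The sum of both ligands was 2.26 ± 0.516 FPKM in WT and 1.20 ± 0.176 FPKM in Mc4r KO (SD, n = 3 each) without overlap. Igf2r itself hardly differed and Igf1 made up most of the ligand sum, so these values largely repeat those of Igf1r and Igf1. The ratio of Igfbp3 to Igf1, by contrast, was 7.65 ± 1.01 and 8.19 ± 1.79 (SD, n = 3 each) with overlap.

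**Figure D4:**
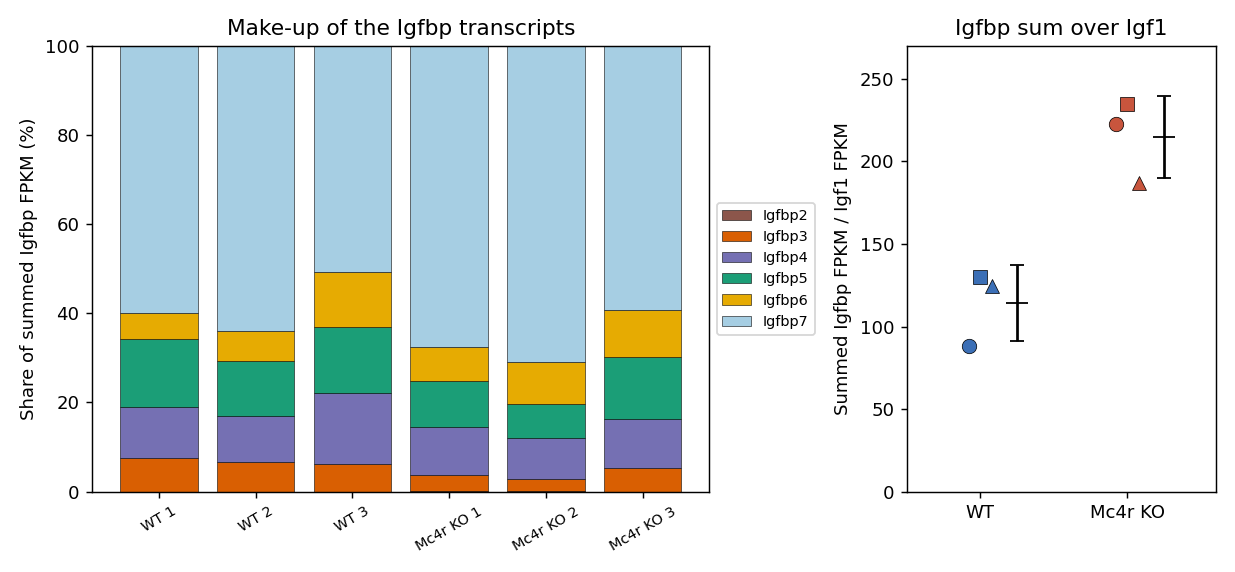
Left, share in percent of each binding protein in the summed FPKM of Igfbp2 to Igfbp7, 1 bar per library. Right, the same sum divided by the FPKM of Igf1 in each library (symbols as before), with the mean and SD of 3 libraries per group beside the points. Igfbp3 took 6.20% to 7.52% of the sum in WT and 2.73% to 5.35% in Mc4r KO, and the ratio was 87.9 to 130 in WT and 187 to 235 in Mc4r KO.

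The genes around the members were taken as 5 lists with 51 genes, of which 45 were tested and 1 was called, beside 0.46% of all genes tested. At an unadjusted p under 0.05 there were 10 of the 45, with 7 lower and 3 higher in Mc4r KO, a share near the 20.9% of all genes, so it says nothing particular about these lists. The lists had medians between -0.17 and -0.002 on the log2 scale, beside -0.01 over all genes tested.

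In the growth hormone arm, 1 of 7 genes tested was called (0.46% of all genes were). Ptpn11 rose in Mc4r KO. It encodes SHP2, a tyrosine phosphatase that acts downstream of growth factor and cytokine receptors. Its level was 25.2, 28.6 and 27.4 FPKM in WT and 50.8, 53.3 and 55.0 FPKM in Mc4r KO. The groups were far apart beside the spread within each, with means of 27.1 ± 1.70 and 53.0 ± 2.14 FPKM (SD, n = 3 each). On the log2 scale the rise was 0.97 with an SE of 0.08 (limma adjusted p = 0.00974). It stayed between 0.77 and 1.005 over the alternatives with adjusted p from 0.00117 to 0.0908, and the call was lost with any 1 library other than WT replicate 3 left out. It was also lost without the trend (adjusted p = 0.0778), with the GC percentage of the reads as a covariate (0.0908) and with the replicate number as a block (0.0712).

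The growth hormone receptor gene Ghr and its kinase Jak2 were chosen after their values were seen. Ghr was at 19.6, 19.03 and 18.5 FPKM in WT and at 14.3, 13.7 and 14.1 FPKM in Mc4r KO, a separation without overlap. Its log2 fold change of -0.44 (SE 0.07) had a limma adjusted p of 0.0579 and lay short of the fold change for a call. Jak2 was at 8.02 ± 0.903 FPKM in WT and 5.95 ± 0.0547 FPKM in Mc4r KO (SD, n = 3 each), with -0.42 as the log2 fold change (limma adjusted p = 0.104). Stat5a, Stat5b, Socs2 and Cish, the transcription factors and feedback genes of this arm, had log2 fold changes of -0.002, 0.08, -0.02 and 0.43, none of them called.

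Among the receptor adaptors and kinases downstream, 0 of 20 genes tested were called by limma, 5 had an unadjusted p under 0.05 (20.9% of all genes did), and voom called Irs2 lower, as it did 0.638% of all genes. Irs2, an adaptor of the insulin and IGF1 receptors, was at 4.82, 3.67 and 2.66 FPKM in WT and at 1.93, 1.51 and 1.84 FPKM in Mc4r KO. The groups did not overlap, and WT replicate 3 was the lowest of the WT libraries. The log2 fold change was -1.004 with an SE of 0.22 (limma adjusted p = 0.0872). Without WT replicate 3 it was -1.22 and passed the call (adjusted p = 0.0164, and 0.0164 to 0.509 over the alternatives). Pik3r1, the regulatory subunit of PI3K, was at 16.04 ± 1.24 FPKM in WT and 22.4 ± 4.25 FPKM in Mc4r KO (SD, n = 3 each), with 0.47 as the log2 fold change (limma adjusted p = 0.137). The insulin receptor gene Insr had a log2 fold change of -0.15 and Akt1 of -0.08.

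Among carriers, proteases and their inhibitors, 0 of 8 genes tested were called by limma and 1 had an unadjusted p under 0.05, beside 20.9% of all genes. This was Mmp2, a matrix protease that also cuts binding proteins, at 23.3 ± 1.34 FPKM in WT and 18.4 ± 2.72 FPKM in Mc4r KO (SD, n = 3 each). The difference was -0.35 on the log2 scale (limma adjusted p = 0.165). Stc1, whose product is a stanniocalcin, was at 1.86 ± 0.641 and 1.49 ± 0.178 FPKM (SD, n = 3 each, limma adjusted p = 0.572). Igfals, which forms the complex of the blood with IGFBP3, had a log2 fold change of -0.10. Igfbp1 was at 0 in both groups.

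Among the imprinted neighbours and mRNA-binding proteins, 0 of 5 genes tested were called by limma and 0 had an unadjusted p under 0.05. Plagl1, an imprinted transcription factor gene, was at 0.726, 0.516 and 1.99 FPKM in WT and at 0.618, 0.236 and 0.470 FPKM in Mc4r KO. WT replicate 3 was the highest library here as for Igf2. Its log2 fold change was -0.98 with an SE of 0.50 (limma adjusted p = 0.312). Airn, the noncoding RNA read across the start of Igf2r on the other strand, was at 3.16 ± 0.286 and 2.83 ± 0.566 FPKM (SD, n = 3 each, limma adjusted p = 0.589).

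The CCN proteins carry a domain like that of the IGF binding proteins, and 0 of 5 of their genes were called by limma, with 1 at an unadjusted p under 0.05, beside 20.9% of all genes. Ctgf, which promotes matrix deposition, was at 27.2 ± 2.53 FPKM in WT and 19.5 ± 5.20 FPKM in Mc4r KO (SD, n = 3 each), with -0.51 as the log2 fold change (limma adjusted p = 0.187). Exons of Gm15270 on the opposite strand overlap 23.24% of its exonic bases. Wisp1 was at 0.297 ± 0.117 and 0.362 ± 0.175 FPKM (SD, n = 3 each, limma adjusted p = 0.832).

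**Figure D5:**
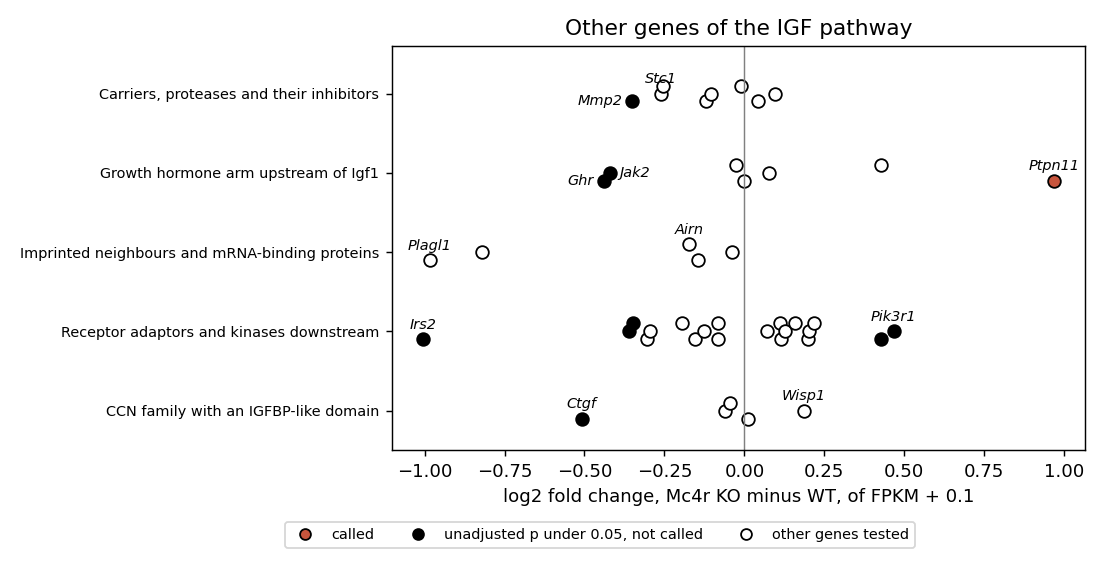
Log2 fold change of FPKM + 0.1, Mc4r KO minus WT, of the 45 genes tested in the 5 lists around the IGF members, 1 point per gene, with vertical offsets for legibility only. The called gene Ptpn11 (red) was at 0.97 and Irs2 at -1.004, and 10 genes had an unadjusted p under 0.05.

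The genes whose log2 levels followed those of 3 members most closely over the 6 libraries were taken from 10220 protein-coding genes whose mean FPKM reached 1. All points share the same 6 libraries, so these values describe them only. Closest to Igf1 were Enpp2, Ccl24 and Lmo2, which encode the enzyme autotaxin, a chemokine and a transcriptional cofactor, with Pearson r of 0.992, 0.989 and 0.988, and 79 genes had an r over 0.95. Closest to Igfbp3 were Zfp612, Klf2 and Sin3a (r = 0.991, 0.990 and 0.989), with 50 genes over 0.95. Closest to Igf2, whose pattern has its highest value in WT replicate 3, were Iffo2, Slc9a3r1 and Cnpy4 (r = 0.992, 0.988 and 0.980), with 26 genes over 0.95.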

How the data were processed

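PolyA RNA from 3 WT and 3 Mc4r KO hearts was sequenced in paired ends, and the authors aligned the reads with HISAT2 (version 2.0.5) to mm10, counted them on genes with featureCounts and deposited FPKM for each gene and library. The use of strand is not given in the sources used here. For the members, the list genes named by rule, Ghr and Jak2, gene positions and lengths in the table equal those of GENCODE M21 (GRCm38). Of all gene identifiers in the table, 99.77% were found there. All columns of values were matched to a library by its label.

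Multiplied by gene length, 100% of the FPKM values came out as whole multiples (within 0.02 reads) of a step particular to the library, which gave the reads back. The floor of 3 reads covers counting error only. Because the unit is FPKM, limma (version 3.58.1, R 4.3.3) with empirical Bayes trend was run on log2(FPKM + 0.1). Median-of-ratios scaling came first, and its factors were 1, so the deposited values already had a common scale of this kind. Fold changes are of log2(FPKM + 0.1), which understates those of low genes. The test was two-sided and covered genes whose mean FPKM reached 0.1. The cut-offs of the call are those of the authors, but their test was DESeq2 on counts, so the calls can differ from theirs. The script was tested on simulated data with larger changes than those of the members and without a deviating library. That test does not show how well differences of the size seen here are found. Shares and ratios used the exact permutation test (SciPy 1.17.1).

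The members and lists were chosen with earlier results of these data known. The genes named are the members, list genes with an adjusted p under 0.05 or else the 2 with the smallest p per list, and the 3 genes most like Igf1, Igfbp3 and Igf2. Other list genes were named after their values were seen. Overlaps with exons of other genes and shared words of 50 bases were checked for the members, the list genes named by rule, Ghr and Jak2 only. The alternatives were other pseudocounts, filters, scalings and limma settings, voom, array weights, protein-coding genes only, a covariate of the clean reads' GC percentage from the study's supplement, the replicate block and each library left out, and, added after seeing the data, a Myl7 covariate.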

Additional observations from a re-analysis of the deposited data

How the results depend on the processing

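The number of genes called over the whole table was 83, and it was 84 with a pseudocount of 0.01, 98 with robust empirical Bayes, 44 with a pseudocount of 1, 22 without the filter on low values, 147 with a mean FPKM of at least 1, 49 with quantile normalization, 41 with scaling outside the mitochondrial chromosome (16 of them higher, beside 57 of 83), 21 without trend, 435 with array weights, 1 with the GC percentage covariate, 305 with limma voom, 204 with protein-coding genes only and 31 with the Myl7 covariate. It ran from 7 to 726 with 1 library left out, the highest without WT replicate 3. Members called were 0, or 1 with array weights and with protein-coding genes only and 2 with voom, and 0 with any 1 library left out. Other pathway genes called were 1, or 2 with array weights, voom and protein-coding genes only, 0 without trend and with the GC covariate, and 0 to 2 with 1 library left out. The replicate numbers of the labels did not pair the libraries (correlations of deviations -0.14, 0.01 and -0.08 over 11297 genes, with 0 of 6 libraries closest to the one of the same number), and the replicate block gave 11 genes, 0 members and 0 pathway genes called. Signs reversed for Igfbp7 with scaling outside the mitochondrial chromosome (-0.0093), for Igfbp6, Stc1 and Wisp1 with the GC covariate (-0.83, 0.24 and -0.49) and for Igf2 with the Myl7 covariate (0.12). With 1 library left out, log2 fold changes ran from -0.81 (without WT replicate 1) to 0.28 (without WT replicate 3) for Igf2, from -0.083 to 0.043 for Igf2r (above 0 without WT replicate 2, WT replicate 3 or Mc4r KO replicate 1), from -0.43 to 0.053 (without WT replicate 3) for Igfbp4, from -0.061 (without WT replicate 1) to 0.68 for Igfbp6 and from -0.073 to 0.52 for Wisp1 (below 0 without WT replicate 1 or Mc4r KO replicate 3). The difference in the share of Igfbp4 was 0.81 percentage points when Igfbp7 was left out of the sum, and with 1 library left out the differences ran from -3.59 to -2.28 for Igfbp3, -3.32 to -0.556 for Igfbp4, -5.31 to -2.13 for Igfbp5, -0.228 (without WT replicate 1) to 3.01 for Igfbp6 and 3.97 to 11.1 for Igfbp7. The GC percentage was higher in each Mc4r KO library than in each WT library, which limits the fits that use it. The median of the members was -0.90 with the GC covariate, -0.09 with array weights and -0.07 with the Myl7 covariate. The cause was not tested. Reads limit Igf2 (7 to 72 per library) and Igfbp2 (0 to 5).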
